A study of Mus musculus with 9 samples.

Results

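Lgr5, Ascl2, Axin2, Cd44, Ephb2, Ephb3, Sox9 and Myc, genes of the stem cell zone of the intestinal crypt that respond to or take part in Wnt signalling, were followed in jejunal tissue across single mice and feeds. They were chosen by name, as every array row whose gene symbol was one of 10 names, Gpr49 being the older name of Lgr5. In all, 8 genes were found, each by 1 probe, so that 8 of the 33012 probes and 8 of the 15674 named genes are described. Lgr5 stands in the array files as Gpr49. No row carried the symbol Olfm4, which is also among the 10 names, and that gene was not analysed here.

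The samples were 9 pieces of jejunum from male mice of the outbred OF1 stock, aged 7 weeks, each hybridised to an Applied Biosystems oligonucleotide array read by chemiluminescence. The mice belonged to generation 3 of lines kept on feed B, feed K or feed G since generation 1, with mice 7, 8 and 10 on feed B, mice 1, 3 and 4 on feed K, and mice 4, 8 and 11 on feed G. All were housed with 12 hours of light, the hour of sampling was neither randomised nor recorded, and no feed was labelled as the control. The composition of the feeds is not given in the labels, and a custom maize diet that the methods mention could not be tied to 1 of the letters. Nothing states whether the mice of a feed were litter mates, so the p-values measure only the spread between these 9 mice.

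The epithelium of the small intestine is renewed from stem cells at the crypt base, which divide throughout life and give rise to the cells of the villus. Wnt ligands bind Frizzled receptors with Lrp5 or Lrp6 on these cells, beta-catenin then accumulates and enters the nucleus with Tcf factors, and a set of target genes is transcribed. R-spondins strengthen the signal through receptors of the Lgr family, Axin2 weakens it as a feedback inhibitor, and EphB receptors together with their ephrin ligands keep crypt and villus cells in their places.

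The signals described below are the deposited spot intensities after quantile normalization over the 9 arrays, in arbitrary units. Detection on an array means a deposited signal-to-noise ratio of at least 3. Signals of different probes cannot be set against each other, so that each gene is compared only with itself. The tissue was a whole piece of gut wall, and in such a sample fewer cells of a type and less RNA per cell cannot be told apart.

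Between 33.7% and 48.1% of all probes were detected per array, and the lowest share was that of mouse 8 of feed B. The 5 enterocyte markers with a probe were detected on all 9 arrays, and neither of the 2 pancreas markers with a probe was detected on any. The markers of the ileum varied widely between mice. Fabp6, an ileal bile acid binding protein, ran from 4.67 to 19.51 on the log2 scale and was detected on 8 arrays, and Slc10a2, the ileal bile acid transporter, ran from 6.53 to 12.66 and was detected on 6. The summed signal of the 2 ileum markers was 58209, 238637 and 753353 in mice 7 and 10 of feed B and mouse 11 of feed G against 225 to 5027 in the other mice. The part of this difference in the results below was not tested, apart from the values without each array.

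The regions at the start of 5 of the 8 genes were in the RefSeq promoter table (assembly GRCm38.p6), each 300 bases long, from 250 before the start of the gene to 50 after it. Those of Ascl2 and Axin2 are shown, since Ascl2 is the transcription factor of the crypt stem cell and Axin2 the widely used readout of Wnt signalling. They read 5′ to 3′ along the strand of the gene, and the capitals mark a CCAAT box (CCAAT, or ATTGG on the other strand) or a GC box (GGGCGG or CCGCCC).

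Ascl2, chr7:142969215-142969514, minus strand: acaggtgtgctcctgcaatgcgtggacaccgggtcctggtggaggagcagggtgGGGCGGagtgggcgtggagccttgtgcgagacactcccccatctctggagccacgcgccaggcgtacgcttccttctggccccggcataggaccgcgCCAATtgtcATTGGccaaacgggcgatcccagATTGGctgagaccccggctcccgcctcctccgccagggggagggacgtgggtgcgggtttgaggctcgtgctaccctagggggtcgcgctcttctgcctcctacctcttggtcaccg

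Axin2, chr11:108920099-108920398, plus strand: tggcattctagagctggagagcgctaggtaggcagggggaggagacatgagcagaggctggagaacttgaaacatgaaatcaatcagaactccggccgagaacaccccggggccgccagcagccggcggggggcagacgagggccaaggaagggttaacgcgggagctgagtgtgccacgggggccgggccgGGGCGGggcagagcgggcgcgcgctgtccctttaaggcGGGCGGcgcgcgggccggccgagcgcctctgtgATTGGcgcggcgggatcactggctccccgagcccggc

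In the Ascl2 window the CCAAT boxes begin at positions -99, -90 and -67 and the GC box at -196, counted from the start of the gene. In the Axin2 window a CCAAT box begins at 14 and GC boxes at -58 and -20. The windows are rich in G and C, at 67% for Ascl2 and 70% for Axin2, against a median of 52.7% over 32851 promoter windows of the table. The Tcf motif was searched as CTTTGAT or CTTTGAA on either strand. It was found in none of the 5 windows, those of Cd44, Ephb2 and Ephb3 included, and in 8.65% of all windows. CCAAT boxes were held by 37.4% and GC boxes by 35.7% of all windows, and the motifs were counted independently of each other.

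Of the 72 signals of the 8 genes, 60 were detected. Lgr5, Myc and Ephb2 were detected in all 9 mice, Axin2, Sox9 and Cd44 in 8, Ascl2 in 6 and Ephb3 in 3. In mouse 8 of feed B only 3 of the 8 genes were detected, against 6 to 8 in every other mouse, and this mouse had the lowest signal of Axin2, Sox9, Cd44 and Ephb3. Its array also had the lowest share of all probes detected, at 33.7%. None of the 8 genes differed between feeds after adjustment over the 9652 genes tested (limma, Benjamini-Hochberg), and none was among the genes with an unadjusted p below 0.05 in any of the 4 tests.

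Lgr5, the R-spondin receptor whose expression marks the dividing stem cell of the crypt base, gave normalized signals of 1425, 1168 and 1202 in mice 7, 8 and 10 of feed B. On feed K it gave 1113, 718 and 883 in mice 1, 3 and 4, and on feed G 1072, 976 and 1271 in mice 4, 8 and 11. All 3 feed K mice lay below all 3 feed B mice, whereas feed G overlapped both. The 3 highest signals were those of the 3 mice with high ileum marker sums, mice 7 and 10 of feed B and mouse 11 of feed G, and no feed K mouse had such a sum. Mouse 8 of feed B, with an ileum sum of 225, also lay above every feed K mouse. The proximal marker Gata4 gave 1157 to 1407 on feed K, 467 to 996 on feed B and 381 to 643 on feed G. The part of gut position in the Lgr5 difference was not tested. The mean log2 signal was 10.30 ± 0.16 on feed B, 9.80 ± 0.32 on feed K and 10.10 ± 0.19 on feed G (SD, 3 mice each). The log2 difference of feed K from feed B was -0.50 (SE 0.22), with a 95% interval from -1.003 to 0.0012, a limma p of 0.0504 and an adjusted p of 0.787. It is a 1.42-fold lower signal on feed K that did not pass the test. The unadjusted limma p was 0.0483 with the brightest probe of each gene, 0.0450 with detection required on 5 arrays and 0.0232 without mouse 1 of feed K. It was 0.0383 with an unmoderated test, and none of these passed after adjustment. The limma p was 0.767 under median scaling and 0.281 in the deposited series table, and an exact permutation p for a pair cannot fall below 0.1. The log2 difference lay between -0.66 and -0.35 when single arrays were left out. It was -0.35 in the series table and -0.09 when arrays were scaled to their medians, settings that moved the median gene by 0.21 and 0.41. The log2 difference of feed G was -0.20 (SE 0.22) from feed B and 0.30 (SE 0.22) from feed K, and neither passed. The feed G minus feed B difference was 0.37 under median scaling and 0.15 in the deposited series table, where the median gene stood at 0.53 and 0.30, and relative to it Lgr5 was at -0.16 and -0.14.

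Ascl2 encodes the basic helix-loop-helix factor on which the stem cell program depends. Its signals were 362, 369 and 413 on feed B, 126, 211 and 431 on feed K, and 215, 116 and 498 on feed G, in the order of mice given above. The spot was not detected in mouse 8 of feed B, mouse 1 of feed K and mouse 8 of feed G, so that each feed had 2 detected mice. The feed B signals lay close together, while feed G spanned the whole range and feed K most of it, and all feeds overlapped. Feed K minus feed B was -0.76 (SE 0.58) and feed G minus feed B -0.72 (SE 0.58) on the log2 scale, with adjusted p of 0.868 and 0.897. The highest signal was in mouse 11 of feed G, where the ileum marker sum was also highest, and without this mouse feed G minus feed B was -1.24 (unadjusted p 0.0419, not passing after adjustment) and feed G minus feed K turned from 0.04 to -0.50.

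**Figure D1:**
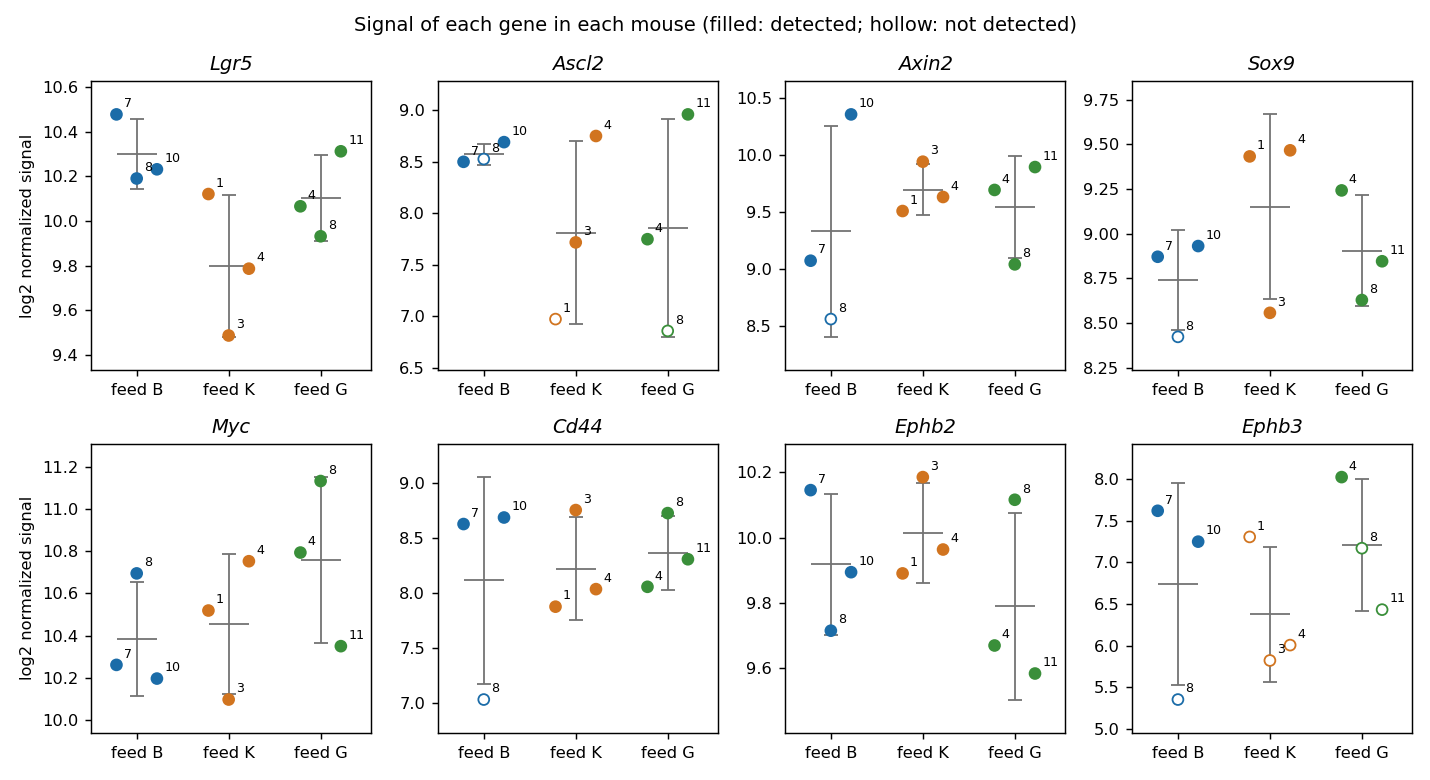
Normalized signal of the 8 genes in each of 9 mice on a log2 scale (y axis, a separate range per gene) by feed (x axis); points are single mice labelled with their number, filled where detected and hollow where not, and the grey bars are the mean and SD of 3 mice. Feed K lies wholly below feed B for Lgr5, and for every other gene all pairs of feeds overlap; mouse 8 of feed B is hollow for 5 genes.

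Axin2, the feedback inhibitor that scaffolds the destruction of beta-catenin, gave 538, 377 and 1307 on feed B. It gave 727, 981 and 792 on feed K and 827, 526.2 and 950 on feed G. Both extremes of the 9 mice were feed B mice, the undetected mouse 8 and mouse 10, and the other feeds lay between them. The log2 difference of feed K from feed B was 0.36 (SE 0.45), that of feed G was 0.21 from feed B and -0.15 from feed K, with an adjusted p of 0.954 over the 3 feeds. Mouse 8 of feed B set the sign, since without it the first 2 differences were -0.02 and -0.17. Without mouse 10 of feed B the feed K minus feed B difference was 0.88, with an unadjusted p of 0.0273 and an adjusted p of 0.361.

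Sox9 is a transcription factor of crypt base and Paneth cells. Its signals were 468, 343 and 488 on feed B, 691, 377 and 708 on feed K, and 606, 396 and 460 on feed G. Mice 1 and 4 of feed K were the highest of all, but mouse 3 of feed K lay below 2 of the feed B mice, and the feeds overlapped. Feed K minus feed B was 0.41 (SE 0.30), feed G minus feed B 0.16 and feed G minus feed K -0.25 on the log2 scale (adjusted p 0.906 over the 3 feeds). Without mouse 3 of feed K the first difference was 0.70, with an unadjusted p of 0.0321.

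Myc, which drives growth and division of crypt cells, gave 1228, 1658 and 1174 on feed B. It gave 1467, 1096 and 1725 on feed K and 1775, 2244 and 1306 on feed G. Mice 4 and 8 of feed G had the highest signals, while mouse 11 of feed G lay within the range of both other feeds. Feed G minus feed B was 0.37 (SE 0.28, adjusted p 0.890), feed G minus feed K 0.30 and feed K minus feed B 0.07 on the log2 scale. With arrays scaled to their medians, feed G minus feed B came to 0.92 with an unadjusted p of 0.0080 and an adjusted p of 0.266, the lowest adjusted p of any of the 8 genes in any setting. That scaling moved the median of all genes in the same comparison to 0.53, and relative to it the Myc difference was 0.39.

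Cd44, a hyaluronan receptor of the cell surface, was seen at 395, 131 and 412 on feed B. It was seen at 235, 432 and 262 on feed K and at 266, 424 and 317 on feed G. The low value of mouse 8 of feed B stood alone, and there the signal-to-noise ratio was 0.90, which means that the deposited signal equalled the SD of the spot. The log2 differences of 0.11 (feed K minus feed B), 0.25 (feed G minus feed B) and 0.14 (feed G minus feed K) were each below their SE of 0.47. Without mouse 8 of feed B the first 2 turned to -0.45 and -0.30.

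Ephb2, an EphB receptor tyrosine kinase whose level is highest at the crypt base, was the steadiest of the 8 genes. Its signals were 1133, 840 and 951 on feed B, 949, 1164 and 998 on feed K, and 814, 1110 and 767 on feed G. The highest and the lowest mouse differed by 1.52-fold, and mice of all feeds were mixed along that range. The differences of 0.09, -0.13 and -0.22 on the log2 scale (feed K minus feed B, feed G minus feed B and feed G minus feed K, SE 0.22) had 95% intervals that reached no farther than 0.72 in either direction, a 1.64-fold change. The feed G minus feed B difference was 0.43 under median scaling and 0.17 in the series table, but -0.10 and -0.13 relative to the median gene of each.

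Ephb3, its close relative, was hardly measured. It gave 196, 40.8 and 152 on feed B, 158, 56.5 and 64.2 on feed K, and 260, 144 and 86.3 on feed G. Only mice 7 and 10 of feed B and mouse 4 of feed G were detected, and no feed K mouse was. The means of all feeds thus include spots near background, and no fold between feeds is given. The fitted differences were -0.36 (feed K minus feed B), 0.47 (feed G minus feed B) and 0.83 (feed G minus feed K, SE 0.68) on the log2 scale, with an adjusted p of 0.914 over the 3 feeds.

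Set side by side, the 24 differences between pairs of feeds gave 0 calls after adjustment, as did all genes: 0.0% of the 9652 genes tested passed in the F test over feeds or in any pair. At an unadjusted p below 0.05, 0 of the 8 genes passed in each test, where 5.37% of all genes passed in the F test. In the pairs it was 6.31% (feed K against feed B), 5.74% (feed G against feed B) and 4.54% (feed G against feed K). With 8 genes these shares amount to less than 1 gene per test. The Lgr5 difference between feed K and feed B was the only 1 of the 24 without overlap between feeds, and 9.95% of all genes did not overlap in that pair, 10.9% in feed G against feed B and 13.6% in feed G against feed K. The median log2 difference of the 8 genes was 0.08, 0.19 and 0.09 in the 3 pairs (feed K minus feed B, feed G minus feed B, feed G minus feed K), beside 0.05, 0.06 and -0.01 over all genes tested, and in each pair 5 of the 8 lay above 0. The feed B mice serve in the first and second of these pairs, and the feed K and feed G mice in 2 pairs each, so the pairs are not independent.

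**Figure D2:**
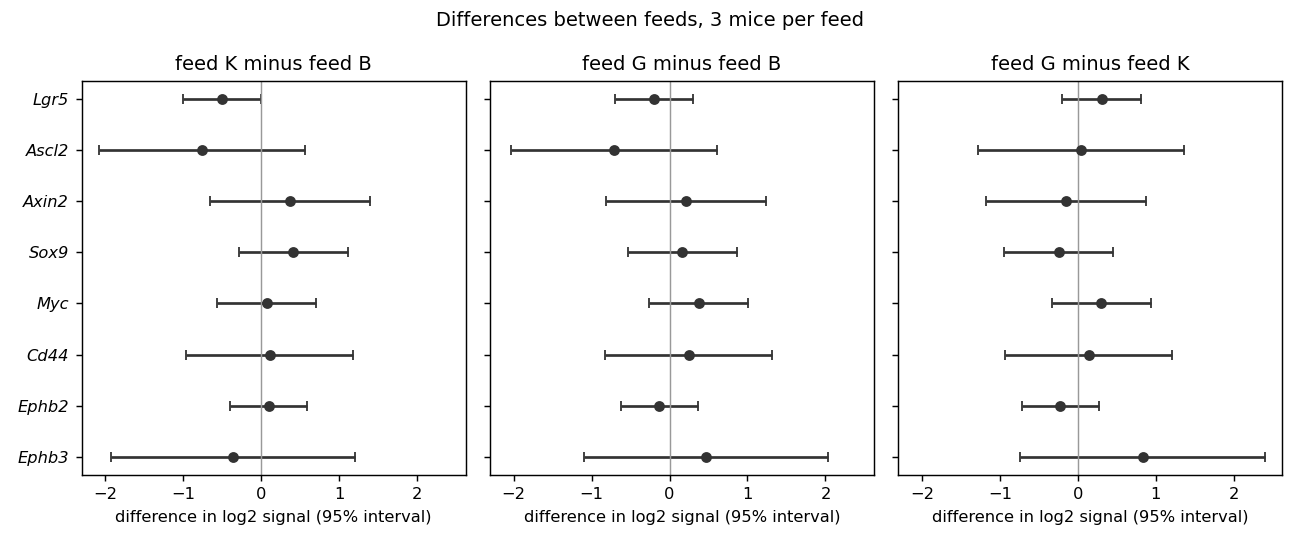
Difference in mean log2 signal between feeds (x axis) for each of the 8 genes (y axis), 1 panel per pair of feeds, 3 mice per feed; points are the limma estimates and bars their 95% intervals. All 24 intervals include 0, and that of Lgr5 for feed K minus feed B ends at 0.0012.

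The intervals show what these 9 mice could have missed in the quantile-normalized fit, and they hold for that fit alone. Beside the 1.64-fold end for Ephb2, the farthest end of any interval was 2.00-fold for Lgr5, 2.01-fold for Myc, 2.16-fold for Sox9, 2.50-fold for Cd44 and 2.62-fold for Axin2. Median scaling, which also moved the median gene, gave log2 differences of 0.50 for Ephb2 (feed K minus feed B) and 0.92 for Myc (feed G minus feed B). In the quantile-normalized fit the intervals were wider for Ascl2 and Ephb3, the genes with the fewest detected mice. The farthest end was 4.23-fold for Ascl2. No fold is given for Ephb3, since its widest interval, feed G minus feed K, rests on 0 detected feed K mice and 1 detected feed G mouse.

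The study asked which genes have uniform levels over jejunal samples, and judged this on arrays of several platforms and by RT-qPCR. The spread over the 9 mice given here is another measure, taken from these arrays alone. Among the genes detected in all mice the SD of log2 signal was 0.22 for Ephb2, 0.30 for Lgr5 and 0.34 for Myc, and their highest signals were 1.52, 1.99 and 2.05 times their lowest. Over the 5887 genes with detection on every array the median SD was 0.29 and the median range 1.85-fold, and 57.9% stayed within 2-fold. In that set the SD of Ephb2 stood at percentile 27.4, that of Lgr5 at 51.1 and that of Myc at 60.4.

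The other 5 genes, each undetected in some mice, had SDs of 0.38 for Sox9, which is close to that of Myc, 0.55 for Axin2, 0.56 for Cd44, 0.79 for Ascl2 and 0.91 for Ephb3. Their ranges were 2.06-fold, 3.46-fold, 3.30-fold, 4.29-fold and 6.36-fold in the same order. Among genes detected on the same number of arrays these SDs were not extreme, at percentiles 20.3 for Sox9, 48.3 for Axin2, 50.3 for Cd44, 43.4 for Ascl2 and 59.3 for Ephb3. Over the detected mice alone the ranges shrank to 1.88-fold for Sox9, 2.48-fold for Axin2, 1.84-fold for Cd44, 2.36-fold for Ascl2 and 1.71-fold for Ephb3. Without mouse 8 of feed B the SD of Cd44 was 0.37.

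The deposited error of single spots was set beside this spread. The root mean square spot error over the detected arrays, 1 over the signal-to-noise ratio put on the log2 scale, was 0.11 for Lgr5, 0.15 for Ephb2, 0.16 for Axin2, 0.21 for Myc, 0.23 for Sox9, 0.27 for Cd44, 0.28 for Ascl2 and 0.34 for Ephb3. Over the detected arrays the SD between mice was 2.84 times the spot error for Axin2, 2.66 times for Lgr5 and 1.93 times for Ascl2. It was 1.61 times for Myc, 1.51 for Sox9, 1.496 for Ephb2, 1.35 for Cd44 and 1.14 for Ephb3. With the undetected mice included the ratio was 3.52 for Axin2, 2.84 for Ascl2 and 2.65 for Ephb3, so that its order depends on them.

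**Figure D3:**
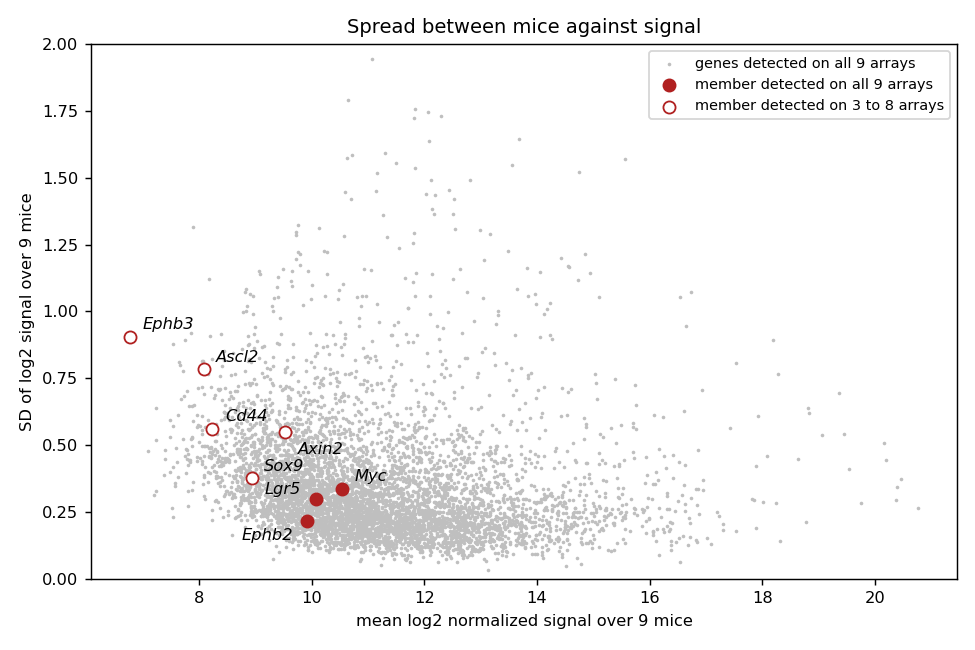
SD of log2 signal over 9 mice (y axis) against mean log2 normalized signal (x axis); grey points are the 5887 genes detected on all 9 arrays, of which 5 lie above the plotted range, and circles are the 8 genes, filled where detected in all mice. Ephb2, Lgr5 and Myc lie at SDs of 0.22 to 0.34 within the cloud, and Ascl2 and Ephb3 at 0.79 and 0.91.

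Whether the genes varied together from mouse to mouse was asked next. Over the 9 mice, 15 pairs of the 6 genes detected on at least 8 arrays were compared, and none passed an exact permutation test. The closest pair was Cd44 and Ephb2 with Pearson's r of 0.59 (exact permutation p 0.0851, adjusted 0.721) and Spearman's rho of 0.62 (exact permutation p 0.0857, adjusted 0.810). Without the 2 mice farthest from the median of Cd44, r was 0.48, and with the feed means subtracted it was 0.74. Axin2 and Cd44 gave r of 0.53 (exact permutation p 0.142, adjusted 0.721) and rho of 0.45 (exact permutation p 0.230, adjusted 0.868), with r of -0.29 without the 2 mice farthest in Axin2. Axin2 and Myc went in opposite directions, with r of -0.53 (exact permutation p 0.144, adjusted 0.721) and rho of -0.58 (exact permutation p 0.108, adjusted 0.810). For that pair r was -0.45 without the 2 mice farthest in Axin2 and -0.69 with the feed means subtracted. Lgr5 and Axin2 gave r of -0.22 (exact permutation p 0.576, adjusted 0.942) and rho of -0.08 (exact permutation p 0.843, adjusted 0.948). In mouse 3 of feed K, Lgr5 was at its lowest while Ephb2 and Cd44 were at their highest.

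The share of probes detected per array was set against the same 6 genes, since mouse 8 of feed B had the lowest share. Of these genes it was also the lowest mouse for Axin2, Sox9 and Cd44. Cd44 gave r of 0.63 (exact permutation p 0.0684, adjusted 0.247) and rho of 0.72 (exact permutation p 0.0369, adjusted 0.221), with r of 0.62 without the 2 farthest mice. Axin2 gave r of 0.61 (exact permutation p 0.0823, adjusted 0.247) and rho of 0.42 (exact permutation p 0.270, adjusted 0.539), and r was -0.19 without those 2 mice, so that relation rested on them. With the feed means subtracted r was 0.79 for Cd44 and 0.76 for Axin2. Lgr5 went the other way, with r of -0.47 (exact permutation p 0.198, adjusted 0.396) and rho of -0.42 (exact permutation p 0.270, adjusted 0.539). Its r was -0.17 without the 2 farthest mice. Sox9, Myc and Ephb2 gave r of 0.08, 0.07 and 0.07. None of the 6 passed after adjustment.

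Among 5886 other genes detected on all arrays, those whose log2 signal followed Lgr5 most closely over the 9 mice were Gt(ROSA)26asSor with r of 0.91, Cpeb2 with 0.88 and Mrpl39 with 0.88. Cpeb2 encodes an RNA-binding regulator of translation and Mrpl39 a protein of the mitochondrial ribosome. As a description, the median r of that list was -0.02 and percentile 99 stood at 0.70. Myc (r -0.10) and Ephb2 (r -0.41) were not among the close genes.

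The neighbours of the 8 genes in the crypt and in the pathway also held no gene that passed after adjustment. Of 17 other crypt stem cell genes listed, 15 had a probe and all 15 were tested. After adjustment 0 passed, and beside 5.37% of all genes tested, 1 of the 15 had an unadjusted F p below 0.05. That gene was Tert, the catalytic subunit of telomerase, detected on only 4 arrays, with mean log2 signals of 5.80 on feed B, 6.60 on feed K and 7.61 on feed G, the last over 2 mice because a spot had failed (F p 0.0257, adjusted 0.897). Tnfrsf19, a Wnt target of stem cells known as Troy, came second with 8.93, 7.49 and 8.97 (F p 0.0906, adjusted 0.903). It was detected on 1 array of feed B, 1 of feed K and 3 of feed G.

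Of 16 other Wnt target genes, 15 had a probe, 12 were tested and 0 passed. Zbtb7c, a zinc finger protein, had the smallest p, with mean log2 signals of 7.66, 8.22 and 8.76 on feeds B, K and G (F p 0.00421, adjusted 0.729) and detection on 5 arrays. These were 1 array of feed B, 1 of feed K and 3 of feed G, so the 2 lower means come mostly from undetected spots. Ccnd1, the G1 cyclin D1, was detected in every mouse at 12.70, 13.53 and 12.73 (F p 0.0569, adjusted 0.897). The median log2 difference of the 12 genes was -0.04 between feeds K and B, 0.18 between feeds G and B, and 0.31 between feeds G and K, the first named minus the second. Over all genes tested the medians were 0.05, 0.06 and -0.01.

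At the top of the pathway few genes gave a signal. Of 23 Wnt ligands and R-spondins, all with a probe, 7 were detected on at least 3 arrays and 7 others on none. The 7 tested were Wnt4, Wnt5a, Wnt6, Wnt10a, Wnt10b, Rspo1 and Rspo3, and of these only Wnt6 was detected in all 9 mice, at log2 signals from 7.42 to 9.48. Rspo1 had the smallest p, with means of 7.12, 8.18 and 7.72 on feeds B, K and G (F p 0.461, adjusted 0.912). None of the 7 had an unadjusted p below 0.05, beside 5.37% of all genes tested in the F test.

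Of the 12 receptors with a probe, 9 were tested, and Lrp5 and Ryk were detected in all mice with SDs of 0.30 and 0.15. Lrp6, the coreceptor, had means of 8.36, 9.84 and 9.67 on feeds B, K and G (F p 0.222, adjusted 0.903), with the low feed B mean set by mouse 7. Of the 12 Wnt inhibitors listed, which include the Kremen genes besides secreted proteins, 5 were tested. Frzb, a secreted Frizzled-related protein, had means of 7.05, 6.57 and 6.26 (F p 0.0353, adjusted 0.897) but was detected on 3 arrays only, and Sfrp1 of the same family had 8.61, 7.65 and 7.74 (F p 0.0566, adjusted 0.897).

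The signal transduction genes were the best measured group of the pathway, with 15 of 17 tested. Detected in all mice were, among others, Ctnnb1 (beta-catenin, SD 0.27), Gsk3b (the kinase that marks it for destruction, SD 0.11) and Tcf7l2 (its DNA-binding partner in the gut, SD 0.31), which were picked after their values were seen. Dvl1, a Dishevelled protein that relays the receptor signal, had the smallest p, with mean log2 signals of 8.51, 9.47 and 8.99 on feeds B, K and G. Every feed K mouse (9.28 to 9.78) lay above every feed B mouse (8.44 to 8.62), and 9.95% of all genes did not overlap in that pair. Dvl1 did not pass (F p 0.00752, adjusted 0.729). Of the 7 ephrin ligands with a probe 3 were tested. Efna4 had means of 7.29, 8.61 and 8.56 (F p 0.0437, adjusted 0.897), with mouse 8 of feed B at 6.01 and detection in 2 of the 3 feed B mice. Efnb1, detected in all 9 mice, had means of 12.60, 12.30 and 12.52 (F p 0.538, adjusted 0.918).

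**Figure D4:**
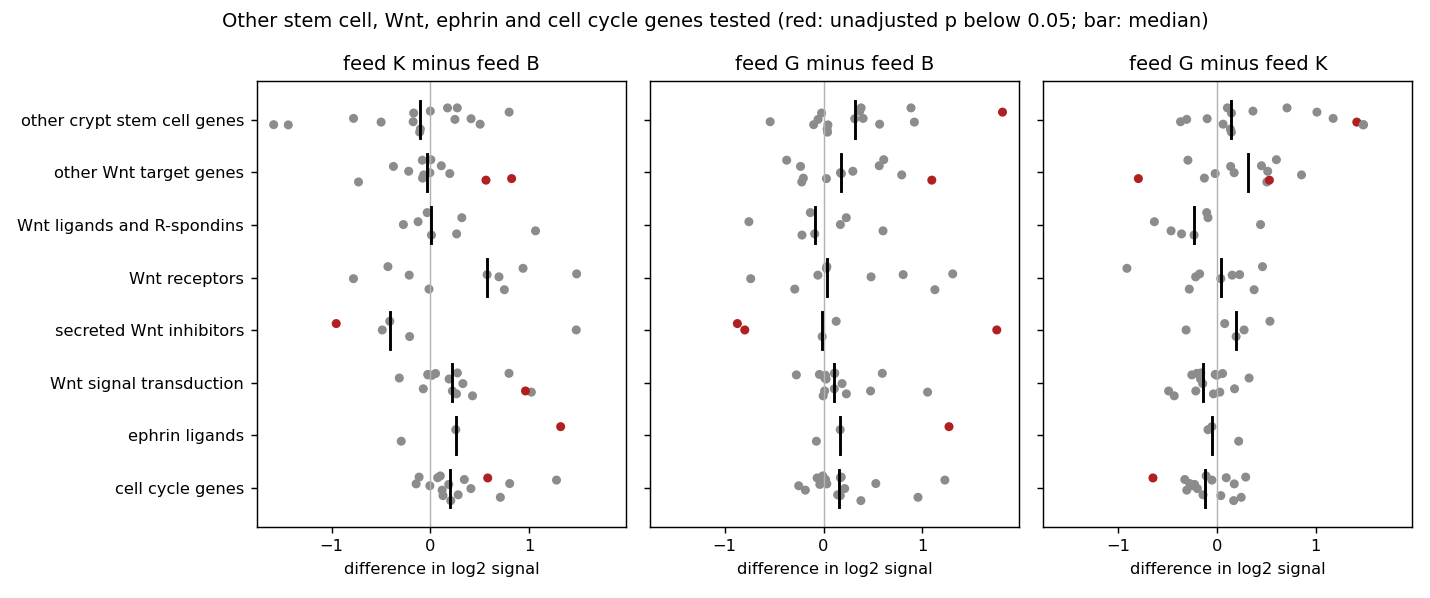
Difference in mean log2 signal between feeds (x axis) for every tested gene of 8 lists of stem cell, Wnt pathway, ephrin and cell cycle genes (y axis), 1 panel per pair of feeds; points are genes, red where the unadjusted limma p was below 0.05, and black bars are list medians. No gene shown passed after adjustment, and the lists of 15 crypt stem cell and 12 Wnt target genes have medians between -0.10 and 0.32. Over all 8 lists the medians run from -0.41 (5 inhibitors) to 0.57 (9 receptors), both for feed K minus feed B. Over all genes tested the medians lie between -0.01 and 0.06.

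Cell cycle genes, which the dividing cells of the crypt express, were measured for 18 of 22 names and tested for 16. None had an unadjusted F p below 0.05, beside 5.37% of all genes tested. Rrm2, a subunit of ribonucleotide reductase, had the smallest F p (0.0505, adjusted 0.897). Mouse 8 of feed B, the mouse with the fewest detected crypt genes, had the lowest signal for 8 of the 16, mouse 11 of feed G for 4, and no other mouse for more than 2. The array of mouse 8 of feed B also had the lowest share of all probes detected, at 33.7%. How often each mouse was the lowest over all genes is not given here. The part of mouse 8 of feed B in the results was not tested beyond the values given without that mouse.

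Markers of the other cell types of the gut wall were followed beside the crypt genes. The Paneth cells, which sit between the stem cells at the crypt base, were represented by 4 markers detected in every mouse, whose summed signal ran from 66406 in mouse 11 of feed G to 497638 in mouse 8 of feed G. Ang4, a Paneth cell antimicrobial protein, had means of 15.01, 13.58 and 12.45 on feeds B, K and G (F p 0.0850, adjusted 0.903). Pla2g2a of the same list, named after its values were seen, stood higher on feed G, by 1.36 on the log2 scale against either other feed (unadjusted p 0.482 against feed B), and ran from 11.16 to 17.71 over the mice. The 4 lymphocyte markers summed to between 515 and 3645 on feed K, 1966 and 3711 on feed B, and 1668 and 3876 on feed G. Over the 9 mice the smooth muscle markers summed to between 39401 and 75105 and the goblet cell markers to between 212645 and 260626. The only tested marker of the proximal small intestine, Gata4, had means of 9.40, 10.35 and 9.07 on feeds B, K and G (F p 0.01003, adjusted 0.729). Its feed K signals, 1157 to 1407, lay above those of feed B (467 to 996) and feed G (381 to 643). Of all genes, 9.95% did not overlap between feeds K and B and 13.6% between feeds G and K. No marker passed after adjustment, and their part in the crypt gene signals was not tested.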

How the data were processed

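The 9 arrays were measured in 9 mice, 3 per feed, from 40 µg of RNA of a 2 cm segment each. Per the methods, the authors imaged the arrays on a chemiluminescence analyzer and corrected spots for background and spatial effects, and deposited for each spot a signal intensity with its SD, a signal-to-noise score and a quality flag. Where the ratio was below 1, the deposited intensity equals the spot SD. Here, spots with a flag over 5000 were dropped, and the remaining signals were quantile normalized by the arithmetic mean, as in the methods, and put on the log2 scale. Probes of 1 gene were averaged. The 9652 genes with a ratio of at least 3 on at least 3 arrays, all 8 crypt genes among them, were fitted with limma 3.58.1 in R 4.3.3 (lmFit, eBayes, Benjamini-Hochberg at 0.05). The fit was tested on simulated data. Python 3.11.15 with scipy 1.17.1, pandas 2.3.3 and numpy 2.4.6 served for the rest.

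The genes and lists were chosen with earlier results of these data known. Besides the 8 genes, the genes open to naming were the 2 of each list with the smallest F p and the brightest of each marker list, of which not all are named, and the 3 genes most like Lgr5. One listed marker is not reported here. Alternatives were median scaling, the deposited series table, other probe, spot and detection rules, other tests, and each array left out. The number of arrays limits the precision, and no batch could be formed, since each array has its own barcode and no scan grouping is given.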

Additional observations from a re-analysis of the deposited data

Results flagged for a closer look

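In 46 genes (the 8 crypt genes and the genes picked from the lists by p or brightness, not all of them named above) the lowest and highest of the 9 mice were checked for standing apart from the others by Dixon's gap-to-range ratio, whose limit for 9 samples is 0.493. For normally distributed values chance flags about 1 in 20, or 2.3 genes here, a rate that need not hold for signals near background. In all 5 were found, none of them 1 of the 8 crypt genes. Mouse 8 of feed B stood apart as the lowest for Ccnb2 (ratio 0.639, log2 signal 7.82 against 9.45 for the next mouse) and Efna4 (0.638, 6.01 against 7.84). Mouse 11 of feed G was the lowest for the Paneth cell gene Lyz1 (0.540, 14.38 against 16.26). Lrp6 was low in mouse 7 of feed B (0.693, 6.12 against 9.01) and Tnfrsf19 in mouse 4 of feed K (0.680, 5.75 against 8.26). Of the 5, only Lyz1 was detected on all 9 arrays. Ccnb2, Efna4 and Lrp6 were each detected in 2 of the 3 feed B mice, and Tnfrsf19 in 1 of the 3 feed K mice. The low values of these genes may thus be undetected spots.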

How the results depend on the processing

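No setting gave an adjusted p below 0.05 for any of the 8 genes. Over all genes, the 0 calls became 1 with an unmoderated test in the F test, in feed G minus feed B and in feed G minus feed K. Leaving out single arrays gave 0 to 3 calls in the F test, 0 to 10 for feed K minus feed B, 0 to 3 for feed G minus feed B and 0 to 0 for feed G minus feed K, and the highest counts came without mouse 10 of feed B. At an unadjusted p below 0.05 the counts of 518, 609, 554 and 438 genes (F test and the 3 pairs) became 1077, 1230, 1798 and 359 under median scaling, 890, 987, 976 and 672 with no detection filter, and 892, 961, 929 and 759 over single probes. By exact permutation, whose smallest p is 0.00357 for the F test and 0.1 for a pair, they were 486, 0, 0 and 0. The median gene moved by 0.41, 0.53 and 0.11 under median scaling and by 0.21, 0.30 and 0.07 in the series table.

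Of the 24 differences between feeds, 14 changed sign somewhere, 4 of them under a scaling that also moved the median gene. Median scaling turned feed G minus feed B to 0.37 for Lgr5 and 0.43 for Ephb2, and feed G minus feed K to 0.014 for Axin2. The series table turned feed G minus feed B to 0.15 for Lgr5 and 0.17 for Ephb2, and feed K minus feed B to -0.017 for Cd44. Relative to the median gene of the setting, Lgr5 (-0.16 and -0.14), Ephb2 (-0.10 and -0.13) and Axin2 (-0.10) kept the sign they had, and Cd44 (-0.23) did not. With single arrays left out, feed K minus feed B ran from -0.019 to 0.88 for Axin2, from -0.076 to 0.25 for Myc, from -0.45 to 0.39 for Cd44, from -0.0066 to 0.21 for Ephb2 and from -1.10 to 0.076 for Ephb3. Feed G minus feed B ran from -0.17 to 0.73 for Axin2, from -0.0035 to 0.30 for Sox9, from -0.30 to 0.53 for Cd44 and from -0.24 to 0.92 for Ephb3. Feed G minus feed K ran from -0.50 to 0.53 for Ascl2, from -0.32 to 0.10 for Axin2 and from -0.041 to 0.40 for Cd44. The other 10 kept their sign. The causes were not tested. The median SD of the 8 genes, 0.46, was 0.36 to 0.48 with single arrays left out. A batch block was not run, as no batch held more than 1 array. No paired analysis was possible because any 2 feeds share at most 1 mouse number and the numbers are not said to pair mice. Signals near background limit Ephb3, Ascl2 and the Wnt ligands most.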
